A study of Mus musculus with 12 samples.

Results

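The 34 genes described here encode proteins of the cardiac sarcomere and Z-disc. They were chosen by name, for the role of their product, and not by a cut on a measured value, though earlier results of these data were known. They were read in the left ventricles of 12 mice. All 34 are among the 53465 genes of the deposited table, and all 34 passed the filter on low counts that left 16101 genes for testing. Of the 34, 7 belong to the thick filament, the titin filament and the M-band, 10 to the thin filament, 15 to the Z-disc and the structures tied to it, and 2 are enzymes that act on the sarcomere or its assembly.

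Sarcomeres are the contractile units of heart muscle. Myosin thick filaments pull on actin thin filaments, and the troponin complex on the thin filament lets calcium switch the pull on and off. Thin filaments are anchored in the Z-disc, which also holds titin, links neighbouring myofibrils through desmin and houses proteins that sense stretch. Cardiac muscle uses its own isoforms of many of these proteins and replaces fetal or skeletal isoforms during maturation, and doxorubicin, an anthracycline used against tumours, is known for damage to this apparatus in patients and animals.

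There were 4 groups of 3 mice, and each mouse gave 1 library. A17fl/fl mice, on a C57BL/6J background, carry floxed alleles of Adam17, the gene of a membrane protease that releases TNF and other proteins from the cell surface. In their A17α-MHCKO littermates, Cre recombinase under the α-MHC promoter, which is active in cardiomyocytes, excised exon 2 of these alleles. Mice of either genotype received normal saline (NS) or doxorubicin (DOX) into the peritoneum at 5 mg/kg on days 0, 7, 14 and 21, which adds up to 20 mg/kg, and hearts were taken 4 weeks after the last injection. The mice were males, 8 weeks old when the injections began. The floxed controls lack Cre, so the presence of Cre and the loss of Adam17 cannot be told apart, and the deletion spares all other cells of the ventricle. In RNA of whole tissue, fewer cells of a type and less RNA per cell cannot be told apart either.

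Total counts ran from 15950717 to 21725076 per library. Levels are given below as CPM, the count of a gene relative to the total of its library after scaling by the trimmed mean of M values (TMM), and the 3 values of a group always stand in the order of replicates 1, 2 and 3. Adam17 was measured at 70.9, 48.7 and 43.6 CPM in A17fl/fl + NS, 48.1, 53.2 and 48.4 in A17fl/fl + DOX, 35.3, 34.9 and 34.2 in A17α-MHCKO + NS and 27.9, 36.8 and 32.2 in A17α-MHCKO + DOX mice. All 6 A17α-MHCKO libraries were below all 6 A17fl/fl libraries, with a log2 difference over both treatments of -0.64 (SE 0.12, adjusted p = 0.446). These are counts over the whole gene from all cells. A17fl/fl + NS replicate 1 stood apart from the rest: its score on the first principal component (35.2% of the variance) was -120, against -12.9 to 28.4 in the other 11 libraries. The 14 cardiomyocyte markers, all detected, added up to 21275 CPM there, whereas the range of the others was 35005 to 48716 CPM. Its 7 neutrophil markers summed to 2818 CPM against 10.6 to 70.0 CPM elsewhere, its 9 fibroblast markers to 8835 CPM against 1466 to 3184 CPM, and its 8 macrophage markers to 2375 CPM against 622 to 911 CPM. It held the lowest level of the 12 libraries in 20 of the 34 sarcomere and Z-disc genes. Atrial markers, 10 genes that ventricle should hold little of, summed to 1056, 7994 and 374 CPM in A17fl/fl + NS, 5105, 2653 and 1891 in A17fl/fl + DOX, 4141, 6967 and 8928 in A17α-MHCKO + NS and 1924, 1935 and 4225 in A17α-MHCKO + DOX mice. None of the markers of these lists was at 0 in all 12 libraries, and 14 skeletal muscle markers, 8 of which passed the filter, summed to 31.8 to 65.4 CPM.

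Levels of different genes were compared in FPKM, which divides the fragments of a gene by its exon length and by the total of the library. The sarcomere genes included some of the most abundant transcripts of the ventricle. Of the 34, 9 were among the 100 genes of highest mean FPKM, 17 had a mean of 100 FPKM or more, 11 lay between 10 and 100 FPKM and 6 were under 10 FPKM. Cardiac α-actin (Actc1), the actin of the thin filament, led with a mean of 4539.6 FPKM and ranked 19 among all genes. Tcap (telethonin), which caps titin at the Z-disc, followed at 1594 FPKM, and Myl3, the ventricular essential light chain, at 1577 FPKM. These neighbours in the order overlapped over the libraries, with Tcap between 587 and 2538 FPKM and Myl3 between 1058 and 2501 FPKM. The 3 subunits of cardiac troponin came next, at 960.4 FPKM for Tnnc1, 705 FPKM for Tnni3 and 503 FPKM for Tnnt2. The order rests on the lengths implied by counts and FPKM, here 1494, 3530 and 8747 bases. In CPM, which ignores length, Tnnt2 (3619 to 6476) was above Tnnc1 (839 to 2153). Myosin-binding protein C (Mybpc3) at 499 FPKM, the LIM protein Fhl2 at 492 FPKM and the intermediate filament desmin (Des) at 477 FPKM lay close to Tnnt2, and their ranges overlapped. At the low end stood isoforms that adult ventricle uses little: Myl1 at 10.5 FPKM, Tpm2 at 7.31 FPKM, Myh7b at 4.16 FPKM, Tnnt1 at 2.90 FPKM and the slow skeletal troponin I gene Tnni1 at 0.215 FPKM. Nebulette (Nebl) was also low, at 9.38 FPKM on an implied length of 22688 bases. The stretch-responsive Z-disc gene Ankrd2 averaged 0.849 FPKM, with 5.15 FPKM in A17fl/fl + NS replicate 1 and at most 0.855 FPKM in the other 11 mice. Titin (Ttn) had 12.9 FPKM on an exonic length of 134526 bases, the length its counts and FPKM imply, and it still drew between 521 and 2491 CPM.

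After doxorubicin most sarcomere and Z-disc genes had higher mean levels in both genotypes, but no gene passed edgeR's quasi-likelihood test after Benjamini-Hochberg adjustment over all genes. Over both genotypes, 30 of 34 had a positive log2 fold change, with a median of 0.35 against -0.03 over all 16101 tested genes, of which 45.6% were positive. At an unadjusted p under 0.05, 15 of the 34 genes (44.1%) were higher after doxorubicin and 0 were lower, where 5.47% of all genes were higher at that limit. At an adjusted p under 0.05 edgeR called 0 of the 34 and 0.0% of all genes. DESeq2 called 5 of the 34 (Actc1, Tnnc1, Tcap, Fhl2 and Tnnt2, adjusted p from 0.00126 to 0.0412) and 1.09% of all genes, and voom with library weights (limma) called Actc1 (adjusted p = 0.0439) and 0.143% of all genes. Leaving out A17fl/fl + NS replicate 2, the saline library with the highest Actc1 level, gave 3 calls in edgeR, of Actc1, Fhl2 and Tnnt1 (adjusted p between 0.0168 and 0.0433), and calls of 0.444% of all genes. All 6 doxorubicin mice were above all 6 saline mice in 6 of the 34 genes (Actc1, Tnnc1, Tnnt2, Ldb3, Smyd1 and Myh7b), against 0.857% of all genes, and in 0 genes were they all below. The 14 cardiomyocyte markers had a median log2 fold change of 0.30, with 12 of 14 positive and 4 at an unadjusted p under 0.05, and none passed the adjusted test. Their sum overlapped between saline and doxorubicin mice (35005 to 46143 CPM in the 5 saline mice other than A17fl/fl + NS replicate 1 and 40559 to 48716 CPM in the 6 doxorubicin mice). Most lists of markers of other cells had mostly negative values over both genotypes. Of the atrial markers 0 of 10 were positive (median -0.94), of the mesothelial 0 of 7 (-1.82), of the macrophage 0 of 8 (-0.31), of the neutrophil 0 of 7 (-2.23), of the fibroblast 2 of 9 (-0.29), of the smooth muscle 1 of 8 (-0.43) and of the endothelial 3 of 8 (-0.02). Of the adipocyte markers 3 of 7 (-0.06) and of the skeletal muscle markers 4 of 8 (-0.04) were positive. The neutrophil median was -5.61 in A17fl/fl mice, where saline replicate 1 was far the highest. In A17α-MHCKO mice it was 0.67, with 7 of 7 positive. The macrophage median was -0.55 in A17fl/fl and -0.09 in A17α-MHCKO mice. None of these markers passed the adjusted test. The part of cell composition in the sarcomere values was not tested.

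**Figure D1:**
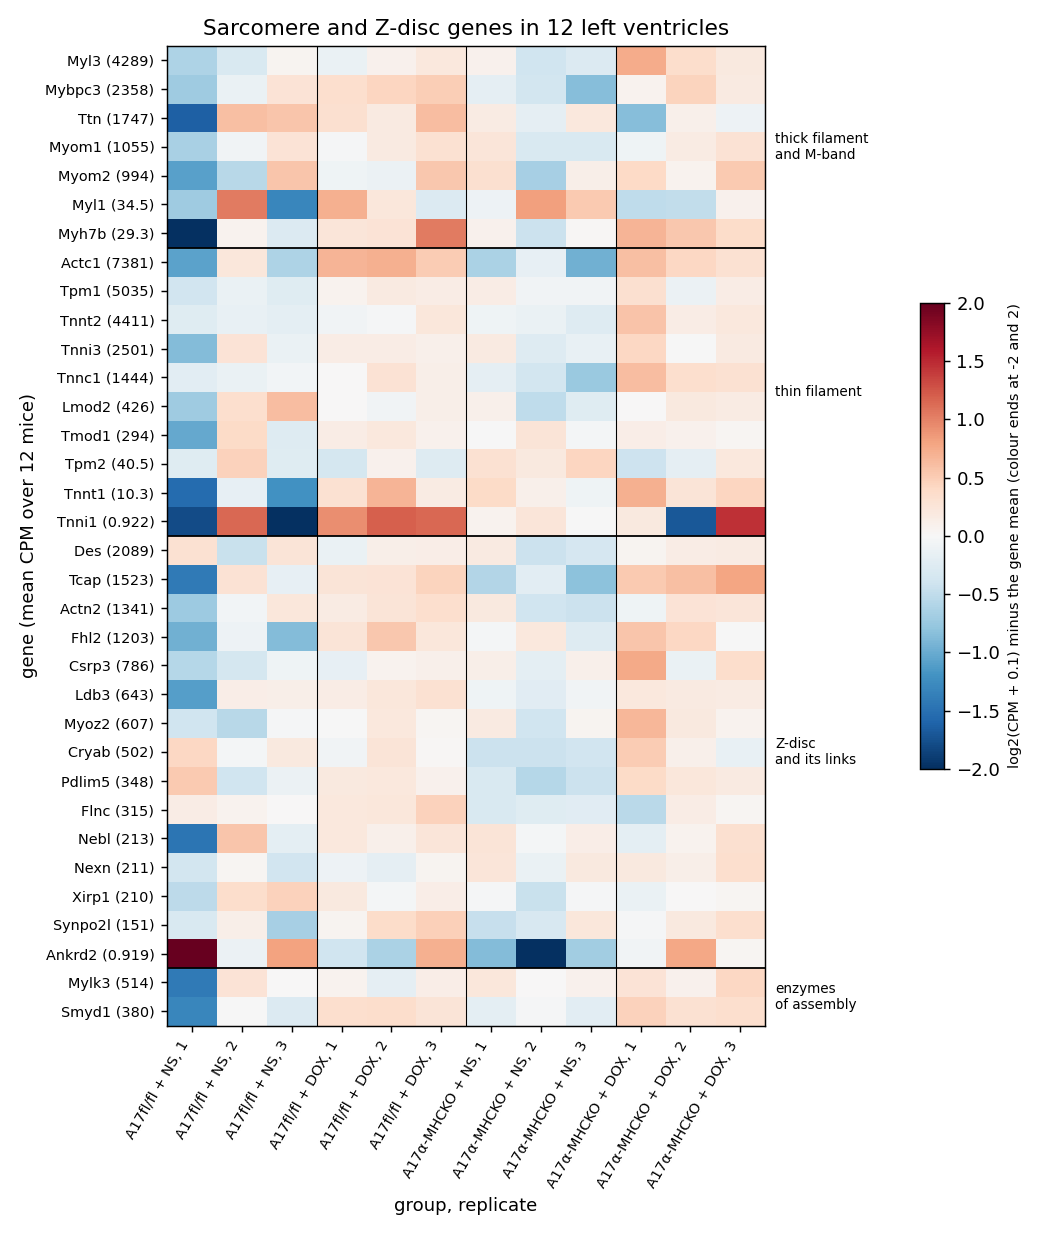
Heat map of the 34 genes (rows, grouped by role, with the mean CPM in parentheses) in the 12 mice (columns, by group and replicate). Colour is log2(CPM + 0.1) minus the gene's mean over the mice. Doxorubicin columns are mostly red and saline columns mostly blue for Actc1, Tnnc1, Tnnt2, Tcap, Fhl2 and Smyd1, and A17fl/fl + NS replicate 1 is the lowest library in 20 of the 34 rows.

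Together the 34 genes took 2.90%, 4.15% and 3.61% of all counts in A17fl/fl + NS, 4.69%, 5.02% and 5.12% in A17fl/fl + DOX, 3.83%, 3.79% and 3.56% in A17α-MHCKO + NS and 5.31%, 4.67% and 4.81% in A17α-MHCKO + DOX mice. Every doxorubicin library was above every saline library. Means were 3.64% ± 0.41 (SD, n = 6) after saline and 4.94% ± 0.25 (SD, n = 6) after doxorubicin. Actc1 alone did not make this order, since without it the share was 2.56% to 3.41% after saline and 3.61% to 4.32% after doxorubicin. The share of mitochondrially encoded genes, which compete for the same total, ran from 17.9% to 25.9% over the 12 libraries and overlapped between the treatments.

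**Figure D2:**
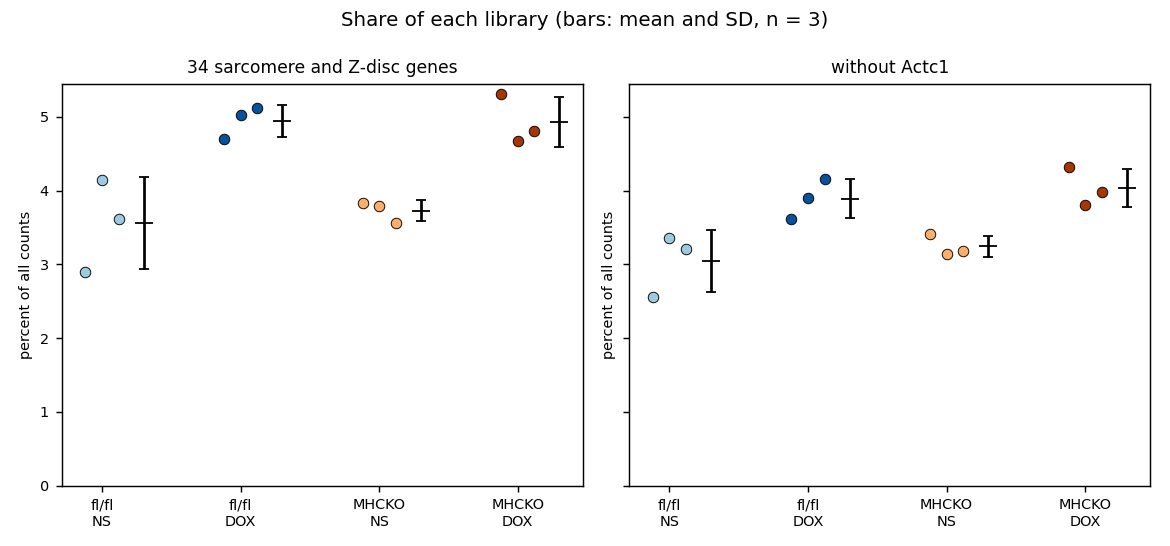
Percent of all counts of a library that fell on the 34 sarcomere and Z-disc genes (left) and on the same genes without Actc1 (right). Points are mice and bars are the mean and SD of the 3 mice of a group. On the left the 6 doxorubicin mice lie between 4.67% and 5.31% and the 6 saline mice between 2.90% and 4.15%.

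Taken by genotype, the shifts were of like size. In A17fl/fl mice, 28 of 34 genes were higher after doxorubicin, with a median log2 fold change of 0.33 against -0.04 over all genes. At an unadjusted p under 0.05, 8 were higher (background 4.11%) and 1 was lower, and 12 had all 3 doxorubicin mice above all 3 saline mice (background 7.15%). In A17α-MHCKO mice, 30 of 34 were higher, with a median of 0.33 against 0.00. Again 8 were higher at an unadjusted p under 0.05 (background 3.97%), 0 were lower and 12 did not overlap (background 9.16%). At an adjusted p under 0.05 edgeR called 0 of 34 in either genotype, as it did for 0.0% of all genes in A17fl/fl and 0.0% in A17α-MHCKO mice. DESeq2 called 2 in A17fl/fl mice (Tnnt1 and Fhl2, against 0.938% of all genes) and 1 in A17α-MHCKO mice (Tnnc1, against 0.255%). By voom the calls were 0 in A17fl/fl mice, as over all genes (0.0%), and 1 in A17α-MHCKO mice (Tcap, against 0.0932%). The values of A17fl/fl mice leaned on single libraries. Without A17fl/fl + NS replicate 1 the median difference between these genes and all genes went from 0.37 to 0.17. Without A17fl/fl + NS replicate 2 edgeR called Actc1, Fhl2 and Tnnt1, and 14 of the 34 had an unadjusted p under 0.05 in either direction. The calls over all genes also rose in that fit, to 2.38% after adjustment and from 10.7% to 20.8% at an unadjusted p under 0.05. Without A17fl/fl + DOX replicate 2 or 3 the count of members was 5, against 6.33% and 6.37% of all genes. Single libraries also weighed in A17α-MHCKO mice, where DOX replicate 1 held the highest level of the 12 libraries in 11 of the 34 genes. In the main fit 640 of 16101 genes were higher and 393 lower at an unadjusted p under 0.05 in this genotype. Without that library 290 of 16499 were higher and 242 lower. By the limits of the study, an absolute log2 fold change over 1 with an unadjusted p under 0.05 and a mean of over 1 FPKM in one group, 4 of the 33 genes at that level passed in A17fl/fl mice (Actc1, Myh7b, Tnnt1 and Ankrd2) against 3.86% of all genes, and 1 of 32 in A17α-MHCKO mice (Tcap) against 0.915%.

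**Figure D3:**
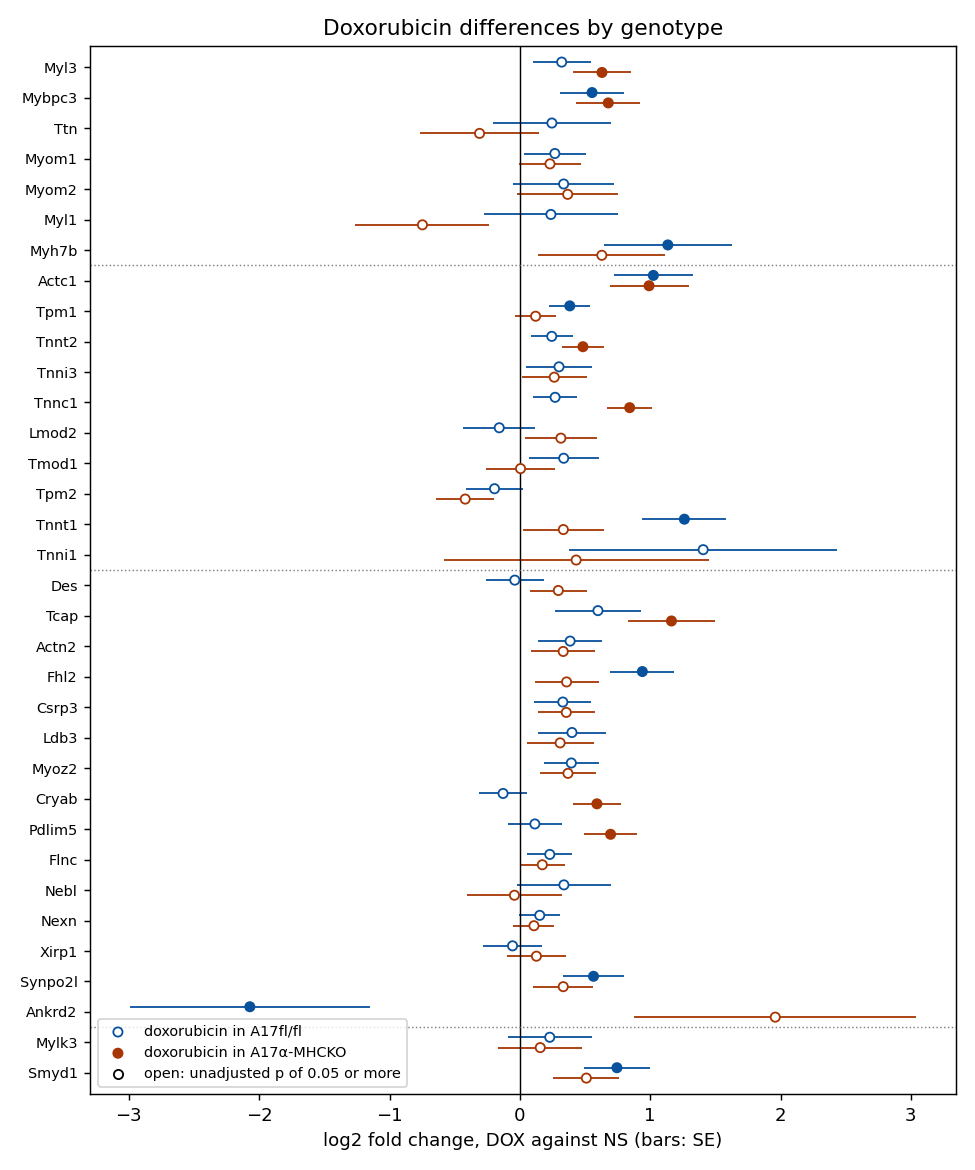
Log2 fold change of DOX against NS (horizontal axis, bars are SE) for the 34 genes, by role from top to bottom, in A17fl/fl (blue) and A17α-MHCKO mice (brown). Filled points have an unadjusted p under 0.05, which is not a call after adjustment. Most points lie to the right of 0 in both genotypes, with 28 of 34 in A17fl/fl and 30 of 34 in A17α-MHCKO mice, and Ankrd2 lies far to the left in A17fl/fl mice.

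Of the 6 genes whose treatments did not overlap, 3 belong to the thin filament. Over both genotypes, 9 of its 10 genes were positive, against 45.6% of all genes, with a median log2 fold change of 0.32. At an unadjusted p under 0.05, 5 were higher, against 5.47% of all genes. Actc1 was read at 3234, 7896 and 4404 CPM in A17fl/fl + NS, 10855, 11113 and 9619 in A17fl/fl + DOX, 4366, 6018 and 3487 in A17α-MHCKO + NS and 10235, 9003 and 8335 in A17α-MHCKO + DOX mice. Every doxorubicin mouse exceeded every saline mouse, though A17fl/fl + NS replicate 2 and A17α-MHCKO + NS replicate 2 came nearer to them than the other saline mice. These are 2 of the 3 libraries with the most atrial marker RNA, while the library with the most, A17α-MHCKO + NS replicate 3, had the lowest Actc1 level of its group. This comparison was made after the values were seen, and the part of atrial tissue in the Actc1 values was not tested. The log2 fold change of Actc1 was 1.02 (SE 0.30, adjusted p = 0.358) in A17fl/fl mice, 0.99 (SE 0.30, adjusted p = 0.697) in A17α-MHCKO mice and 1.01 (SE 0.21, adjusted p = 0.207) over both, about a doubling. Without A17fl/fl + NS replicate 1 the A17fl/fl value was 0.77. The protein of Actc1 is nearly identical to skeletal α-actin (Acta1). How any fragments that match both genes were counted is not given in the sources used here, so the level of Actc1 carries that uncertainty. Acta1 had a log2 fold change over both genotypes of 0.32 (SE 0.32, adjusted p = 0.732).

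Troponin C (Tnnc1), the calcium sensor of the thin filament, was read at 1217, 1283 and 1355 CPM in A17fl/fl + NS, 1418, 1715 and 1518 in A17fl/fl + DOX, 1237, 1082 and 839 in A17α-MHCKO + NS and 2153, 1776 and 1735 in A17α-MHCKO + DOX mice. The lowest doxorubicin mouse lay just above the highest saline mouse, and the A17α-MHCKO groups were the farther apart. The log2 fold change was 0.84 (SE 0.17, adjusted p = 0.540) in A17α-MHCKO mice, 0.27 (SE 0.17, adjusted p = 0.582) in A17fl/fl mice and 0.56 (SE 0.12, adjusted p = 0.207) over both. Cardiac troponin T (Tnnt2), which ties troponin to tropomyosin, was read at 3687, 3924 and 3793 CPM in A17fl/fl + NS, 4163, 4266 and 5081 in A17fl/fl + DOX, 4083, 3981 and 3619 in A17α-MHCKO + NS and 6476, 4843 and 5019.9 in A17α-MHCKO + DOX mice. Its groups did not overlap either, with the smaller distance again in A17fl/fl mice, where the log2 fold change was 0.24, against 0.48 in A17α-MHCKO mice (adjusted p = 0.595 and 0.705). Cardiac troponin I (Tnni3), the inhibitory subunit, was at 1342, 2965 and 2221 CPM in A17fl/fl + NS, 2697, 2705 and 2635 in A17fl/fl + DOX, 2760.1, 2050.4 and 2208 in A17α-MHCKO + NS and 3245, 2422 and 2759 in A17α-MHCKO + DOX mice. Saline and doxorubicin mice overlapped, and its log2 fold change over both genotypes was 0.28 (adjusted p = 0.579).

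The upstream sequences of these 3 non-overlapping thin filament genes are shown because these are the most abundant members in which all doxorubicin mice exceeded all saline mice, a choice made after their values were seen. Each is the run of 250 bases before the RefSeq start on GRCm38.p6, 5′ to 3′ on the gene's strand, and capitals mark matches to the motifs searched. Actc1 lies at chr2:114052876-114053125, minus strand. Tnnc1 lies at chr14:31208062-31208311, plus strand. Tnnt2, for which the first of 2 listed starts is shown, lies at chr1:135836084-135836333, plus strand.
Actc1: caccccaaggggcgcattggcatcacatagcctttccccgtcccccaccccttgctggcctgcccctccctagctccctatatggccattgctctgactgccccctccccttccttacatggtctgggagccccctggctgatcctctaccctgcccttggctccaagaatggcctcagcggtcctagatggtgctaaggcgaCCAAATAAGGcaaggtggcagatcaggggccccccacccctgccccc
Tnnc1: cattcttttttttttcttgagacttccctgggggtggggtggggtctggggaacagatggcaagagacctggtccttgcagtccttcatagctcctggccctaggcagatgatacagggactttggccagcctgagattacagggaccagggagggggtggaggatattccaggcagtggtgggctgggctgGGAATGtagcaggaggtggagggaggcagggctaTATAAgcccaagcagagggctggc
Tnnt2: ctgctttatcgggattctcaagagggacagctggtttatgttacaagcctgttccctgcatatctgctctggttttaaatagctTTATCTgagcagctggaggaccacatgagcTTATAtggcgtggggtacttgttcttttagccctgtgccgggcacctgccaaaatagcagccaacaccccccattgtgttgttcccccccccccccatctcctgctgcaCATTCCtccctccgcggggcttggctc
The motifs, searched on both strands, were the TATA core TATAA, the GATA site AGATAA, the M-CAT element CATTCC, the CArG box bound by serum response factor and the MEF2 site, and a MEF2 site can overlap a TATA core. The Actc1 window held a CArG box at -47 to -38 from the start and no other motif of the 5. Tnnc1 held TATAA at -24 to -20 and CATTCC, on the other strand, at -58 to -53. Tnnt2 held CATTCC at -27 to -22 and, both on the other strand, TATAA at -136 to -132 and AGATAA at -166 to -161. RefSeq windows were at hand for 29 of the 34 genes, not for Tcap, Nexn, Myom2, Cryab and Xirp1. Of the 29, 6 held a CArG box in at least 1 window (Actc1, Fhl2, Ldb3, Myl3, Myom1 and Nebl), against 1.62% of 27025 genes, and 4 held a MEF2 site (Mybpc3, Myoz2, Synpo2l and Ttn), against 0.592%. CATTCC was in 9 of 29 against 14.4% of all genes, TATAA in 10 of 29 against 25.8% and AGATAA in 6 of 29 against 11.4%. These are matches of letters, not binding sites. Of the 6 CArG genes, Actc1 and Ldb3 separated the treatments. Fhl2 and Myl3 overlapped but had an unadjusted p under 0.05 over both genotypes, and Nebl and Myom1 did neither. A link between the motifs and the doxorubicin values was not tested.

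Tropomyosin 1 (Tpm1), the main tropomyosin of heart, was at 3809.7, 4561 and 4222 CPM in A17fl/fl + NS, 5234, 5639 and 5548 in A17fl/fl + DOX, 5521, 4765 and 4759.7 in A17α-MHCKO + NS and 6240.1, 4609 and 5512 in A17α-MHCKO + DOX mice. A17fl/fl mice did not overlap between treatments and A17α-MHCKO mice did, with log2 fold changes of 0.38 and 0.12 (adjusted p = 0.436 and 0.918). The β-tropomyosin gene Tpm2, far lower, was the one thin filament gene with a negative value over both genotypes. It was read at 33.6, 54.5 and 33.6 CPM in A17fl/fl + NS, 31.1, 42.2 and 33.0 in A17fl/fl + DOX, 49.3, 45.6 and 53.2 in A17α-MHCKO + NS and 29.6, 35.0 and 46.0 in A17α-MHCKO + DOX mice, and the treatments overlapped, with a log2 fold change of -0.31 (adjusted p = 0.501). Slow skeletal troponin T (Tnnt1) was at 3.17, 8.38 and 4.01 CPM in A17fl/fl + NS, 11.7, 15.1 and 10.6 in A17fl/fl + DOX, 12.3, 10.1 and 8.83 in A17α-MHCKO + NS and 15.4, 11.2 and 12.7 in A17α-MHCKO + DOX mice. The A17fl/fl groups were apart, because the saline mice of this genotype were low, and the A17α-MHCKO groups overlapped. Its log2 fold change was 1.26 (SE 0.32, adjusted p = 0.334) in A17fl/fl mice, the member with the smallest p there, and 0.33 in A17α-MHCKO mice. Tnni1 reached at most 1.94 CPM and was at 0 counts in A17fl/fl + NS replicate 3, so its values, 0.115, 1.56 and 0 CPM in A17fl/fl + NS, 1.32, 1.60 and 1.55 in A17fl/fl + DOX, 0.679, 0.777 and 0.639 in A17α-MHCKO + NS and 0.755, 0.130 and 1.94 in A17α-MHCKO + DOX mice, were too low to set apart any groups. The 2 genes that control the pointed end of the thin filament, leiomodin 2 (Lmod2) and tropomodulin 1 (Tmod1), had log2 fold changes over both genotypes of 0.08 and 0.17 (adjusted p = 0.909 and 0.759). Lmod2 spanned 253 to 634 CPM and Tmod1 141 to 375 CPM over the 12 mice.

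Of the 7 genes of the thick filament, titin and the M-band, 5 were positive over both genotypes, against 45.6% of all genes. At an unadjusted p under 0.05, 3 were higher (Mybpc3, Myl3 and Myh7b), against 5.47% of all genes. Myl3 was read at 2706, 3373 and 4344 CPM in A17fl/fl + NS, 3808, 4399 and 4812 in A17fl/fl + DOX, 4408, 3159 and 3436 in A17α-MHCKO + NS and 6977, 5302 and 4748 in A17α-MHCKO + DOX mice. The A17α-MHCKO groups did not overlap and the A17fl/fl groups did, and the log2 fold change over both genotypes was 0.48 (adjusted p = 0.363). Mybpc3, which binds myosin and tunes cross-bridges, lay between 1259.6 to 2738 CPM after saline and 2364 to 3169.9 CPM after doxorubicin, with a log2 fold change of 0.62 (adjusted p = 0.301). Within each genotype its doxorubicin mice were above its saline mice. Myh7b, a minor myosin heavy chain gene, was at 4.04, 27.0 and 21.2 CPM in A17fl/fl + NS, 30.5, 31.1 and 53.0 in A17fl/fl + DOX, 27.2, 19.0 and 26.2 in A17α-MHCKO + NS and 41.4, 37.4 and 33.2 in A17α-MHCKO + DOX mice. All doxorubicin mice were above all saline mice, and the lowest saline mouse was A17fl/fl + NS replicate 1, with a count of 70. The log2 fold change over both genotypes was 0.88 (adjusted p = 0.420).

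Titin, the spring that spans from Z-disc to M-band, showed no such order. Ttn was at 521, 2451 and 2387 CPM in A17fl/fl + NS, 2029.5, 1834 and 2491 in A17fl/fl + DOX, 1822, 1429 and 1867 in A17α-MHCKO + NS and 894, 1729 and 1507 in A17α-MHCKO + DOX mice, and the 2 lowest libraries were A17fl/fl + NS replicate 1 and A17α-MHCKO + DOX replicate 1. Its log2 fold change was 0.25 in A17fl/fl and -0.31 in A17α-MHCKO mice, with an SE of 0.45 and 0.45. The M-band proteins Myom1 and Myom2, which crosslink thick filaments, had 0.25 and 0.35 over both genotypes (adjusted p = 0.603 and 0.654). The fast light chain gene Myl1 was read at 18.9, 64.2 and 12.5 CPM in A17fl/fl + NS, 50.8, 36.4 and 25.6 in A17fl/fl + DOX, 28.9, 55.2 and 44.8 in A17α-MHCKO + NS and 21.8, 22.0 and 33.0 in A17α-MHCKO + DOX mice. The treatments overlapped. Its 4 highest libraries, A17fl/fl + NS replicate 2, A17α-MHCKO + NS replicates 2 and 3 and A17fl/fl + DOX replicate 1, were also the 4 libraries with the highest sum of atrial markers, an overlap noted after the values were seen, and the part of atrial tissue in the Myl1 values was not tested further.

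At the Z-disc and its links, 14 of 15 genes were positive over both genotypes, against 45.6% of all genes, with a median of 0.34. At an unadjusted p under 0.05, 6 were higher, against 5.47% of all genes. The negative one was Ankrd2 (-0.06), which was also the 1 gene lower in A17fl/fl mice at that limit (-2.07 (SE 0.92, adjusted p = 0.459)) and whose values, in which a single library weighs heavily, are given with the genotypes. Tcap was read at 527, 1713 and 1245 CPM in A17fl/fl + NS, 1681, 1693 and 1904 in A17fl/fl + DOX, 932, 1212 and 791 in A17α-MHCKO + NS and 2013, 2128 and 2431 in A17α-MHCKO + DOX mice. In A17α-MHCKO mice the doxorubicin group was far above the saline group, with a log2 fold change of 1.16 (SE 0.34, adjusted p = 0.695). In A17fl/fl mice one saline mouse lay within the doxorubicin range, and the value was 0.60 (adjusted p = 0.535). Over both it was 0.88 (SE 0.24, adjusted p = 0.301). Fhl2, an adaptor of the Z-disc and I-band that also enters the nucleus, was at 588, 1067 and 629.9 CPM in A17fl/fl + NS, 1373, 1669.5 and 1339.5 in A17fl/fl + DOX, 1116, 1331 and 957 in A17α-MHCKO + NS and 1687, 1533 and 1145 in A17α-MHCKO + DOX mice. Here the clear separation was in A17fl/fl mice, with 0.94 (SE 0.25, adjusted p = 0.334), against 0.36 in A17α-MHCKO mice and 0.65 (SE 0.17, adjusted p = 0.301) over both. Without A17fl/fl + NS replicate 2 the A17fl/fl value was 1.26 (adjusted p = 0.0243), in a fit that called 2.38% of all genes. Over 21 alternative fits the value ran from 0.78 to 1.26, with an adjusted p under 0.05 in 2 of them.

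Ldb3 (Cypher), a PDZ-LIM protein that binds α-actinin, was at 293, 687 and 683 CPM in A17fl/fl + NS, 693, 729.8 and 769 in A17fl/fl + DOX, 591, 533 and 599 in A17α-MHCKO + NS and 728, 708 and 698 in A17α-MHCKO + DOX mice. The 2 treatments did not overlap but nearly touched, with a log2 fold change over both genotypes of 0.35 (adjusted p = 0.503). Another PDZ-LIM gene, Pdlim5, was at 486, 258 and 310.4 CPM in A17fl/fl + NS, 389, 393 and 360.1 in A17fl/fl + DOX, 275, 228 and 251 in A17α-MHCKO + NS and 441, 395 and 385 in A17α-MHCKO + DOX mice. Its A17α-MHCKO groups were apart, with 0.70 (SE 0.21, adjusted p = 0.695), and in A17fl/fl mice the highest of all 12 libraries was a saline one, replicate 1. Synpo2l, an actin-bundling protein of the Z-disc, was at 119, 159 and 91.9 CPM in A17fl/fl + NS, 152, 189 and 205 in A17fl/fl + DOX, 107, 117 and 171 in A17α-MHCKO + NS and 144, 167 and 186 in A17α-MHCKO + DOX mice, with overlap in each genotype and 0.56 (SE 0.23, adjusted p = 0.433) in A17fl/fl mice. Cryab (αB-crystallin), a small heat shock protein that holds desmin and titin, was at 655, 479 and 564 CPM in A17fl/fl + NS, 468, 587 and 497 in A17fl/fl + DOX, 366, 366 and 376 in A17α-MHCKO + NS and 697, 528 and 445 in A17α-MHCKO + DOX mice. In A17α-MHCKO mice doxorubicin gave 0.59 (SE 0.18, adjusted p = 0.705), with no overlap, whereas the A17fl/fl value was -0.13 (adjusted p = 0.822).

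For the scaffold of the disc itself the values were smaller. α-Actinin 2 (Actn2), which crosslinks actin there, had 0.36 over both genotypes, calsarcin 1 (Myoz2) 0.38 and the muscle LIM protein Csrp3 0.34 (adjusted p = 0.483, 0.420 and 0.467). Csrp3 was read at 516, 597 and 723 CPM in A17fl/fl + NS, 682, 805 and 819 in A17fl/fl + DOX, 827, 669 and 825 in A17α-MHCKO + NS and 1293, 698 and 979.6 in A17α-MHCKO + DOX mice, with overlap in both genotypes. Filamin C (Flnc), nexilin (Nexn), nebulette (Nebl), desmin and Xin (Xirp1), which tie actin to the disc or to neighbouring structures, lay between 0.04 (Xirp1) and 0.20 (Flnc), and none had an unadjusted p under 0.05. Of the 2 enzymes, Smyd1, a methyltransferase needed for myosin assembly, was at 147, 360.3 and 302 CPM in A17fl/fl + NS, 459, 464 and 433 in A17fl/fl + DOX, 316, 358 and 314 in A17α-MHCKO + NS and 499, 447 and 461 in A17α-MHCKO + DOX mice. All doxorubicin mice were above all saline mice, with 0.74 (SE 0.25, adjusted p = 0.396) in A17fl/fl mice and 0.63 over both genotypes. Mylk3, the cardiac myosin light chain kinase, spanned 185 to 599 CPM after saline and 438 to 661 CPM after doxorubicin, with a log2 fold change of 0.19 (adjusted p = 0.777).

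**Figure D4:**
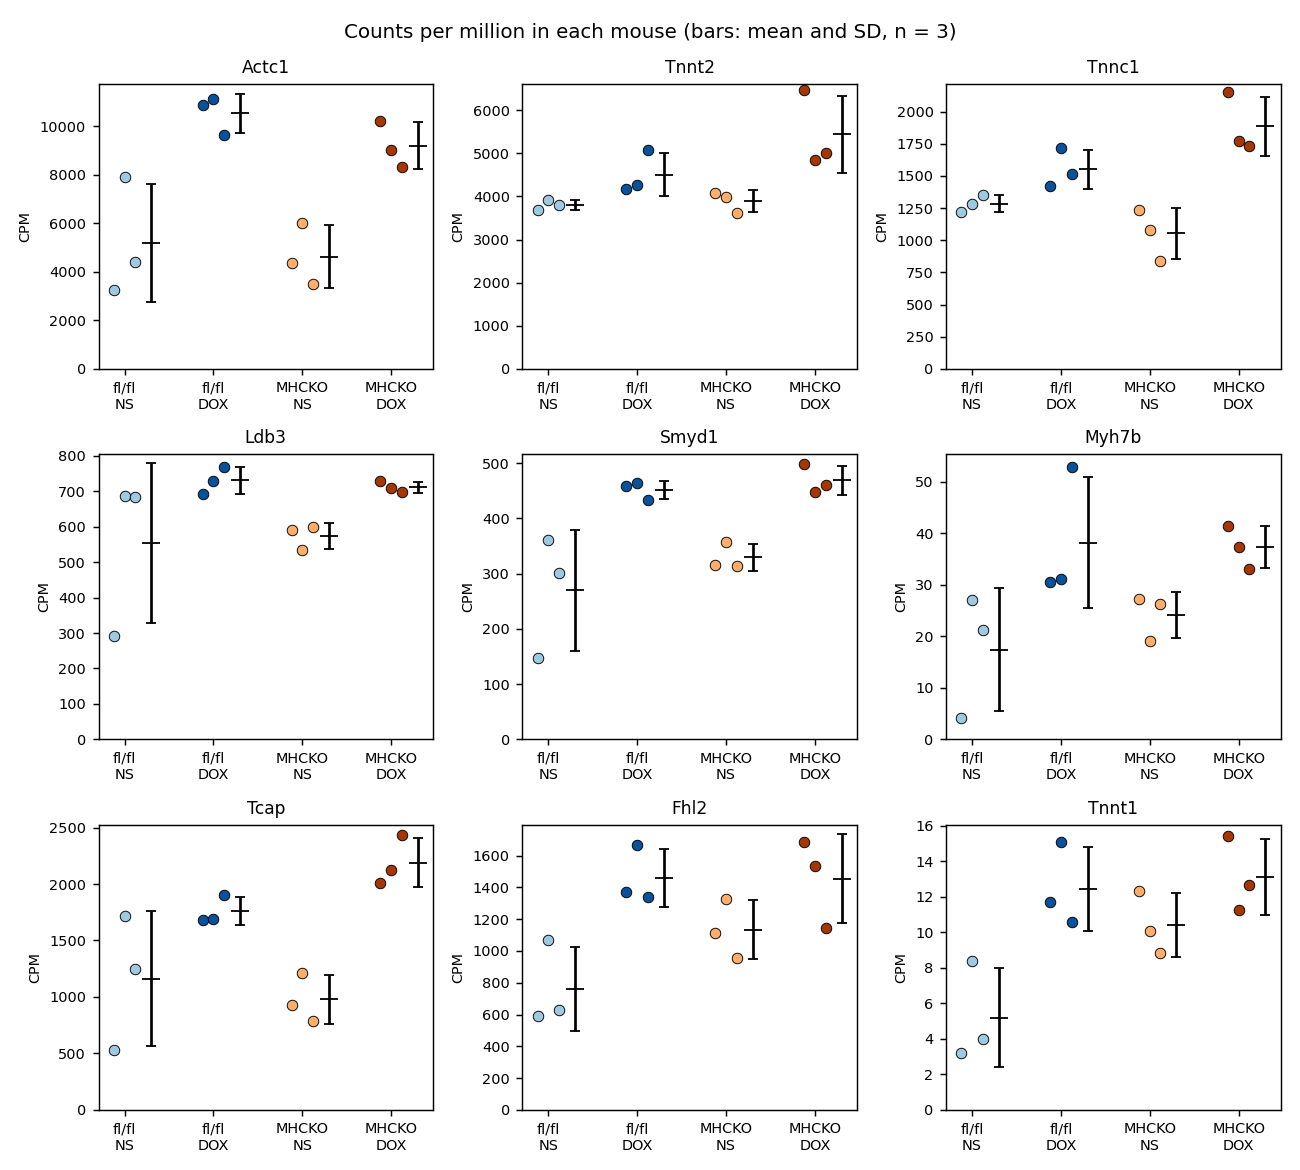
CPM (vertical axes, from 0) in each mouse for 9 genes by group, with fl/fl for A17fl/fl and MHCKO for A17α-MHCKO. Points are mice and bars the mean and SD of 3 mice. In the upper 6 panels (Actc1, Tnnt2, Tnnc1, Ldb3, Smyd1 and Myh7b) all 6 doxorubicin mice are above all 6 saline mice, and in the lower 3 (Tcap, Fhl2 and Tnnt1) at least 1 saline mouse lies within the range of the doxorubicin mice.

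Between the genotypes the genes did not move in 1 direction. After saline, 21 of 34 were higher in A17α-MHCKO mice, with a median log2 difference of 0.09 against -0.03 over all genes. At an unadjusted p under 0.05, 2 were higher and 3 lower, and these 5 of 34 compare with a background of 10.1% in either direction. The groups did not overlap for 2 higher genes (Tnnt1 and Tpm1) and 3 lower ones (Ankrd2, Cryab and Flnc), against 10.9% of all genes. edgeR called 0 of 34 at an adjusted p under 0.05 (0.0186% of all genes), DESeq2 called Ankrd2 (against 1.08% of all genes) and voom 0 (against 0.00621%). The result turned on the saline libraries of A17fl/fl mice. Without replicate 1, the median difference from all genes went from 0.12 to -0.12 and 2 genes were higher and 10 lower without overlap. Groups of 2 and 3 mice separate more readily than groups of 3 and 3. The share over all genes was not computed for that split, so this count cannot be set against the 10.9%. Without replicate 2 edgeR called Ankrd2, Fhl2, Tnnt1 and Myl1, against 4.09% of all genes, and 13 members had an unadjusted p under 0.05, against 20.1% of all genes. With replicate 1 left out, that count was 8, against 10.2%.

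Ankrd2 had the largest difference, -3.71 (SE 1.04, adjusted p = 0.317), and 1 mouse enlarged it. It was read at 5.37, 0.479 and 1.002 CPM in A17fl/fl + NS, 0.377, 0.308 and 0.932 in A17fl/fl + DOX, 0.247, 0 and 0.291 in A17α-MHCKO + NS and 0.504, 0.975 and 0.547 in A17α-MHCKO + DOX mice, so A17fl/fl + NS replicate 1, the library with high neutrophil and fibroblast markers, held 93 counts and no other library held over 16. Without that library the log2 difference was -2.10 (adjusted p = 0.452), on levels of at most 1.002 CPM, with the other 2 A17fl/fl + NS mice still above all 3 A17α-MHCKO + NS mice. Cryab was lower in all 3 A17α-MHCKO + NS mice than in any A17fl/fl + NS mouse, with -0.61 (SE 0.18, adjusted p = 0.323). Pdlim5 gave -0.48 (SE 0.20, adjusted p = 0.459) with overlap. In the other direction Tnnt1 gave 1.004 (SE 0.32, adjusted p = 0.342) without overlap, and Fhl2 0.58 (SE 0.25, adjusted p = 0.460) with overlap. By the limits of the study, 2 of 33 genes passed (Ankrd2 and Tnnt1), against 4.07% of all genes.

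Between the genotypes after doxorubicin, the median log2 difference was 0.06 against 0.01 over all genes, 18 of 34 were positive, and 1 of 34 had an unadjusted p under 0.05, against 2.7% of all genes. That gene was Flnc, which was at 342, 325 and 311 CPM in A17fl/fl + NS, 358, 361 and 427 in A17fl/fl + DOX, 251, 261 and 265 in A17α-MHCKO + NS and 213, 344 and 319 in A17α-MHCKO + DOX mice. All 3 A17α-MHCKO + DOX mice were below the A17fl/fl + DOX mice, with a log2 difference of -0.39 (SE 0.17, adjusted p = 0.9998), and the saline groups had the same order, with -0.33. Without any 1 of 8 of the libraries no gene had an unadjusted p under 0.05, and without A17fl/fl + NS replicate 1 or A17α-MHCKO + DOX replicate 2 there were 2, against 5.85% and 3.87% of all genes. Nexn, an actin-binding protein of the Z-disc, was at 161, 213 and 159.8 CPM in A17fl/fl + NS, 194, 185 and 216 in A17fl/fl + DOX, 246, 190.2 and 238 in A17α-MHCKO + NS and 238, 225 and 264 in A17α-MHCKO + DOX mice. Its doxorubicin groups did not overlap, with 0.29 (SE 0.16, adjusted p = 0.9998). The other 3 of smallest p were Myl3 (0.39, SE 0.22), Tnnt2 (0.27, SE 0.16) and Tnnc1 (0.28, SE 0.17), all with an adjusted p of 0.9998. Without overlap, 3 genes were higher in A17α-MHCKO + DOX mice (Nexn, Tnnc1 and Tcap) and 2 lower (Flnc and Ttn), against 14.1% of all genes in either direction. edgeR called 0 of 34 at an adjusted p under 0.05 (0.00621% of all genes), as did DESeq2 and voom (each 0.0186% of all genes), and 0 of 32 passed the limits of the study, against 0.288% of all genes.

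Over both treatments, 5 of 34 had an unadjusted p under 0.05 between the genotypes, against 6.65% of all genes. They were Flnc (-0.36, SE 0.12), Nexn (0.31, SE 0.11), Tnnt1 (0.54, SE 0.22), Ankrd2 (-1.70, SE 0.71) and Csrp3 (0.35, SE 0.15). Their adjusted p ran from 0.736 to 0.743, edgeR called 0 of 34 (0.0248% of all genes), and DESeq2 (0.193% of all genes) and voom (0.0248%) also called 0. In no gene were the 6 mice of one genotype all above or all below those of the other, where 0.335% of all genes were. The count of 5 was 8 without A17fl/fl + NS replicate 2 (against 13.5% of all genes) and 2 without A17fl/fl + DOX replicate 3 (against 4.94%), and the Ankrd2 value was -0.89 without A17fl/fl + NS replicate 1.

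Whether doxorubicin acted differently in the 2 genotypes was asked by the interaction, the difference of the 2 doxorubicin fold changes. Its median over the 34 genes was -0.04 against 0.06 over all genes, and 3 had an unadjusted p under 0.05, against 5.99% of all genes. They were Ankrd2 (4.03, SE 1.42, and 2.42 without A17fl/fl + NS replicate 1), Cryab (0.72, SE 0.26) and Tnnc1 (0.57, SE 0.24), each with an adjusted p of 0.828. Tnnt1 (-0.93, SE 0.45) and Pdlim5 (0.58, SE 0.29) followed. For Tnnt1 the A17fl/fl + NS mice were the lowest group, and for Cryab and Pdlim5 the A17α-MHCKO + NS mice were. edgeR, DESeq2 and voom called 0 of 34 at an adjusted p under 0.05, where edgeR and voom called 0.0% and DESeq2 0.13% of all genes. The count at an unadjusted p under 0.05 was 9 without A17fl/fl + NS replicate 2, against 14.3% of all genes, and the median difference from all genes went from -0.10 to 0.16 without replicate 1 of that group.

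The isoform pairs compare a gene that adult ventricle uses little with its main cardiac counterpart inside a library, which no scaling of libraries can alter. The log2 ratio of FPKM of Tpm2 to Tpm1 was -5.25, -4.82 and -5.40 in A17fl/fl + NS, -5.82, -5.49 and -5.82 in A17fl/fl + DOX, -5.24, -5.14 and -4.91 in A17α-MHCKO + NS and -6.15, -5.47 and -5.33 in A17α-MHCKO + DOX mice. In each genotype the doxorubicin mice were below the saline mice. The ratio was 0.55 lower over both genotypes (exact permutation test within genotype, two-sided, p = 0.0050, the smallest it can give, and adjusted p = 0.12 over 24 tests), and -0.55 in each genotype. Tpm2 was 2.31% to 3.43% of Tpm1 by FPKM after saline and 1.39% to 2.42% after doxorubicin. These percentages rest on lengths of 5566 bases for Tpm2 and 16538 for Tpm1, which do not enter the change of the ratio between mice. As with Myl1, the library of lowest atrial marker sum, A17fl/fl + NS replicate 3, had the lowest ratio among the saline mice. That was noted after the values were seen and rests on 1 library. Smooth muscle markers also had a negative median log2 fold change over both genotypes (-0.43, with 1 of 8 positive). The part of atrial or other tissue in this ratio was not tested. The ratio of Tnnt1 to Tnnt2 was -8.86, -7.56 and -8.57 in A17fl/fl + NS mice and between -7.60 and -6.84 in the other 9 mice, and 1 saline mouse lay in that range. The ratio of Myl1 to Myl3 spanned -8.74 to -6.02 within the A17fl/fl + NS group alone and covered the A17fl/fl + DOX and A17α-MHCKO groups. Tnni1 was at most 0.058% of Tnni3 in any mouse, so the slow skeletal troponin I stayed at trace level after doxorubicin. All 23 other tests of these ratios had an adjusted p of 0.528 or more, and 3 against 3 mice cannot give a p below 0.1.

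**Figure D5:**
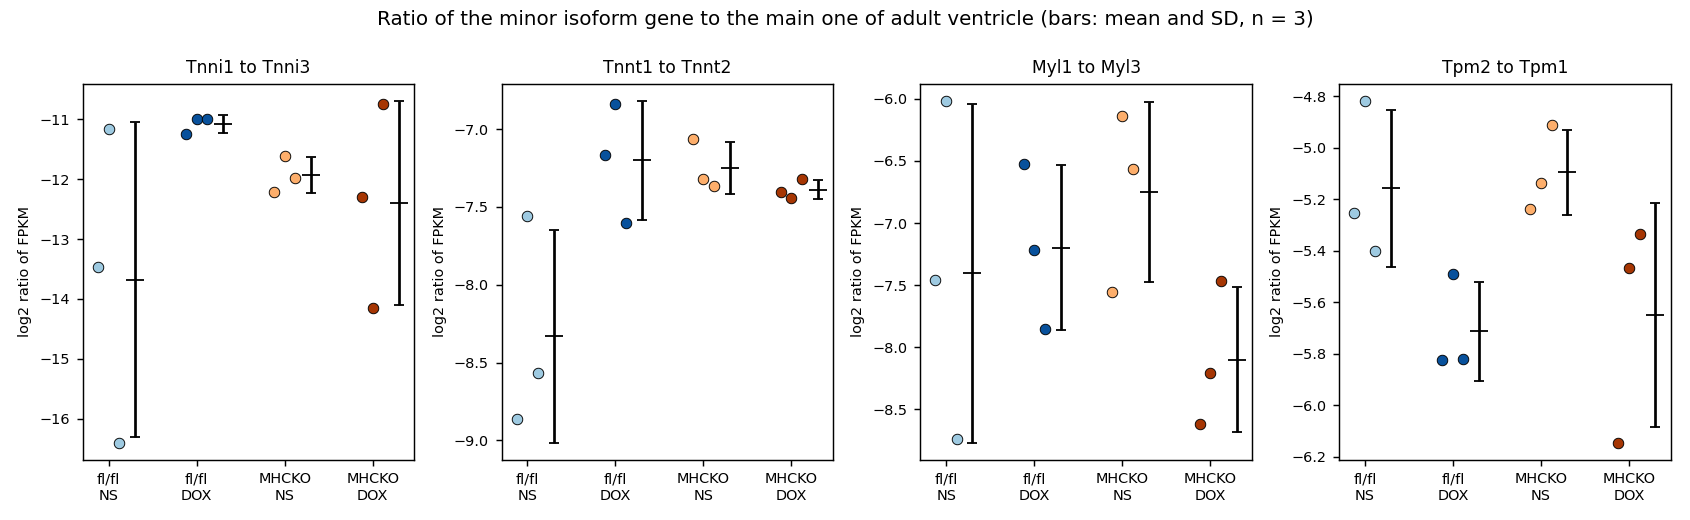
Log2 ratio of FPKM of the minor to the main isoform gene in each mouse (vertical axes, each on its own scale) by group. Points are mice and bars the mean and SD of 3 mice. Tpm2 to Tpm1 is -5.33 or lower in every doxorubicin mouse, and the low point of Tnni1 to Tnni3 in A17fl/fl + NS mice is replicate 3, which had 0 Tnni1 counts and takes its value from a pseudocount of 0.5.

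The other structural genes of the sarcomere had a median nearer to that of all genes. Their list is not a like set, since it also holds atrial markers (Myl4, Myl7 and Mybphl) and skeletal muscle markers (Tnni2 and Tnnt3 among them). Of 47 other structural genes, 43 were tested, and over both genotypes 23 were positive after doxorubicin, with a median of 0.07. At an unadjusted p under 0.05, 6 were higher (14.0%), against 5.47% of all genes. The 3 of smallest p were the slow β-myosin gene Myh7 (1.55, SE 0.39), the regulatory light chain Myl2 (0.75, SE 0.20) and the M-band gene Myom3 (0.97, SE 0.27), with adjusted p between 0.295 and 0.301. In A17fl/fl mice they were the pointed-end gene Lmod3 (0.76), the kinase Speg (0.57) and Pdlim2 (0.46), and in A17α-MHCKO mice Myh7 (2.33), Myl2 (0.95) and Fhl1 (0.59). The main adult myosin Myh6, named after its values were seen, had 0.26 over both genotypes (adjusted p = 0.719). Between genotypes after saline the smallest p belonged to myotilin (Myot, -1.82), fast troponin I (Tnni2, 1.37) and Xirp2 (-0.77), and after doxorubicin to fast troponin T (Tnnt3, -1.71), Myh7 (1.06) and Speg (-0.42). Over both treatments they were again Myot (-0.89), Tnni2 (0.72) and Xirp2 (-0.39), and in the interaction Myot (1.87), Xirp2 (0.76) and Tnni2 (-1.28). None passed the adjusted test, and the smallest adjusted p of the list was 0.172 (Myot after saline).

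Of 31 genes of sarcomere assembly, turnover and transcription, all tested, 21 were positive after doxorubicin over both genotypes, and the median was 0.08. At an unadjusted p under 0.05, 4 were higher and 1 lower, where 880 of all 16101 genes were higher and 837 lower. The methyltransferase Smyd2 (0.48, SE 0.14), the small heat shock protein Hspb7 (0.48, SE 0.16) and the ubiquitin ligase Trim55 (0.42, SE 0.15) had the smallest p. In A17fl/fl mice these were the transcription factor Gata4 (0.90), the kinase Camk2d (0.61) and the protease Capn3 (-1.08), and in A17α-MHCKO mice Hspb7 (0.93), Hspb6 (0.85) and Smyd2 (0.47). Between genotypes they were Hspb7 (-0.74), Hspb6 (-0.87) and Gata4 (0.49) after saline and Gata4 (-0.50), Camk2d (-0.39) and Tbx20 (-0.42) after doxorubicin. Over both treatments Prkd1 (0.33), Hspb7 (-0.30) and Hspb6 (-0.38) stood first, and in the interaction Gata4 (-0.99), Hspb7 (0.90) and Camk2d (-0.72). None of these had an adjusted p under 0.05. The stress genes Nppa, Nppb, Myh7, Acta1, Ankrd1 and Xirp2, whose rise marks a loaded heart, had a median of 0.24 over both genotypes. Of these, 4 of 6 were positive and 1 was higher at an unadjusted p under 0.05, against 5.47% of all genes. In A17fl/fl mice 2 of 6 were positive, with a median of -0.19, and 0 were higher at that limit, against 4.11% of all genes. In A17α-MHCKO mice 5 of 6 were positive, with a median of 0.66, and 3 were higher at that limit, against 3.97%. In the interaction 5 of 6 were positive, with a median of 0.85, and 1 had an unadjusted p under 0.05, against 5.99% of all genes. None passed the adjusted test. Nppa is also one of the atrial markers, whose sum ran from 374 to 8928 CPM over the libraries. The A17fl/fl values include saline replicate 1, which stood apart from the rest. The part of tissue composition in the stress gene values was not tested.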

How the data were processed

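Left ventricular RNA of 12 mice, 3 in each of 4 groups, was sequenced from stranded paired-end mRNA libraries. The authors deposited 1 table of 53465 genes with an unnormalized fragment count and an FPKM for each mouse, and 0 of its 24 value columns were left unused. The deposited counts came from StringTie, and the deposited FPKM are counts divided by exon length and library total. The submitters' processing notes list CASAVA 1.8, HISAT2, SAMtools 1.3.1, edgeR and the build GRCm39 without their roles. The annotation release and the strand setting are not given in the sources used here.

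Tests used the counts, in edgeR 4.0.16 under R 4.3.3. The filter filterByExpr left 16101 genes, which were scaled by TMM and fitted by glmQLFit with 4 group means, and glmQLFTest gave 7 comparisons with Benjamini-Hochberg adjustment over all genes tested. Each SE is approximate, the ratio of the absolute log2 fold change to the root of its F statistic. Isoform ratios were log2 ratios of FPKM with a pseudocount of 0.5 counts. They were compared by exact permutation tests over all splits of the mice and adjusted over 24 tests. The code was tested on simulated data. Each library is a separate mouse. At totals of 15950717 to 21725076 the spread between mice, and not counting error, limits the abundant genes.

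Replicate numbers were checked for pairing: of 18 same-numbered pairs of libraries, 3 had a correlation of deviations over 0.1, with a range of -0.10 to 0.22, so the numbers were not taken to pair mice. In GENCODE M21, used for names and overlaps only, 9 of the 34 genes have exons that overlap another gene, 7 on the other strand (among them Cryab, Myl3, Myh7b, Ttn and Des) and 2 on the same strand (Nexn and Tnni3), so their counts may hold fragments of a neighbour. Promoter windows were RefSeq windows on GRCm38.p6.

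All 34 genes were accounted for by counts and ranges. Values per mouse were given for the isoform pairs, the 5 members of smallest p in each comparison and the 3 of highest FPKM, and for other sarcomere genes the 3 of smallest p in each list and comparison. Ldb3, Myh7b, Ttn, Acta1 and Myh6 were added after their values were seen. The members and lists were chosen with earlier results of these data known. Alternatives were DESeq2 1.42.0, limma 3.58.1 voom with library weights, RLE, upper-quartile or no scaling, a filter of 10 counts in every library or none, the 2 groups alone, a replicate block, each library left out, CPM in place of FPKM in the limits of the study, no pseudocount and a share without mitochondrial genes.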

Additional observations from a re-analysis of the deposited data

How the results depend on the processing

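Under every other scaling and filter tried, edgeR called none of the 34 genes at an adjusted p under 0.05, and of the 35 values given for named genes none changed direction under any alternative, while 19 of their alternative values passed the adjusted limit and 697 did not. DESeq2 called 2 genes for doxorubicin in A17fl/fl mice, 1 in A17α-MHCKO mice, 5 over both genotypes and 1 for genotype after saline, and voom with library weights called 1 for doxorubicin in A17α-MHCKO mice and 1 over both genotypes. Leaving out single libraries gave 0 to 3 calls for doxorubicin in A17fl/fl mice, 0 to 3 over both genotypes and 0 to 4 for genotype after saline, all of them without A17fl/fl + NS replicate 2. At an unadjusted p under 0.05 the leave-one-out counts ran from 5 to 14 for doxorubicin in A17fl/fl mice, 4 to 13 for genotype after saline, 0 to 2 for genotype after doxorubicin, 2 to 9 for the interaction and 2 to 8 for genotype over both treatments. The counts of 14, 13, 9 and 8 came without A17fl/fl + NS replicate 2, where the shares over all genes were 20.8%, 20.1%, 14.3% and 13.5%. In the main fit those shares were 10.7%, 10.1%, 5.99% and 6.65%. Fitting the 2 groups alone gave counts of 3 and 13 for doxorubicin in A17fl/fl and A17α-MHCKO mice and 2 and 3 for genotype after saline and after doxorubicin. Over all genes at that limit, 407 were higher and 493 lower of 15457, and 844 and 823 of 15422, for doxorubicin. For genotype the numbers were 346 and 431 of 15560, and 506 and 598 of 15351. With voom the counts were 14 for doxorubicin in A17α-MHCKO mice, 2 for genotype after doxorubicin and 6 for the interaction. Over all 16101 genes voom had 1157 higher and 954 lower, 562 and 530, and 536 and 522 in these comparisons. The main fit had 640 and 393, 244 and 191, and 564 and 401. The cause of these shifts was not tested.

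With the replicate number as a replicate block, genotype over both treatments had 3 genes at an unadjusted p under 0.05 in place of 5, doxorubicin in A17fl/fl mice 6 in place of 9 and doxorubicin over both genotypes 13 in place of 15, and the block called 0 of 34 after adjustment in every comparison. Over all 16101 genes the block had 419 higher and 483 lower, 696 and 801, and 887 and 700 in these comparisons. The main fit had 444 and 626, 661 and 1060, and 880 and 837. Of the 12 libraries, 6 correlated best with one of their own number. The median difference between the 34 genes and all genes ran, leaving out single libraries, from 0.17 to 0.48 for doxorubicin in A17fl/fl mice, -0.12 to 0.27 for genotype after saline and -0.20 to 0.16 for the interaction. The genotype differences of the isoform ratios over both treatments changed sign, from -0.47 to 0.84 for Tnni1 to Tnni3, -0.46 to 0.22 for Myl1 to Myl3 and -0.016 to 0.19 for Tpm2 to Tpm1, whereas the doxorubicin difference of Tpm2 to Tpm1 ran from -0.63 to -0.43. Over counts of genes not encoded by mitochondria, the 34 genes took 4.64% after saline and 6.23% after doxorubicin. Genes of a few counts, Tnni1 and Ankrd2, are limited by depth as well as by the number of mice.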
